A study of Mus musculus with 8 samples.

Results

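Bcl6 is a transcriptional repressor, and the proteins that it recruits to silence genes are its corepressors. The genes described are Bcl6 and 7 corepressor genes, Ncor1, Hdac3, Tbl1xr1, Bcor, Mta3, Sin3a and Ctbp1, 8 in all, chosen by name. Of these, 7 could be followed among the 19938 genes tested, through 9 transcript clusters (a cluster is the group of array probes that reads 1 transcript). Ncor1 was not analysed here. The 8 arrays held RNA of naive CD4 T cells from mice with a Bcl6 deletion in T cells (called Bcl6 cKO, n = 4) and from wild-type mice (WT, n = 4). All cells had been stimulated through CD3 and CD28 with antibodies for 24 hours, and the labels carry a tag, Tf0, that they do not explain. The labels name neither the Cre driver nor the deleted exons, and give no age, strain or sex. Nor do they tie each sample to a mouse of its own, so the p-values rest on the spread between samples. Some of these may be technical replicates, but not all within a genotype, since each held arrays with high and with low Y-linked signal.

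Bcl6 is best known in CD4 T cells as the factor needed for follicular helper T cells, and in B cells for the germinal centre. It binds DNA through zinc fingers. A groove of its BTB domain binds NCoR (encoded by Ncor1) and BCOR, which in turn carry enzymes that act on histones. Other regions of Bcl6 bind Mta3, a subunit of the NuRD chromatin remodelling complex, and the corepressor CtBP. Sin3a is the scaffold of a further deacetylase complex. Human BCL6 is known to repress its own gene, and its DNA motif resembles the sites bound by STAT factors.

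The stretches of 250 bases before the annotated starts of Bcl6 and Bcor are shown because Bcl6 is a possible target of its own protein, and because Bcor was the corepressor with the smallest unadjusted p-value. They are RefSeq sequence of mouse build GRCm38.p6, minus strand, written 5′ to 3′, and capitals mark each match to the spacing of STAT sites (TTCNNNGAA, a palindrome, where N is any base). The windows lie at chr16:23988853-23989102, chr16:23981284-23981533 and chrX:12160347-12160596.
Bcl6 outer start: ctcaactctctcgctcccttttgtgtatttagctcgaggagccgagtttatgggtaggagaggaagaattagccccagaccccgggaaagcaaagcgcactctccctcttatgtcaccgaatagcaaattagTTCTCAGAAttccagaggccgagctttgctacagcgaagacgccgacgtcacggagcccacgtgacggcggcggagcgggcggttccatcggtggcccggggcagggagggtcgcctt
Bcl6 inner start: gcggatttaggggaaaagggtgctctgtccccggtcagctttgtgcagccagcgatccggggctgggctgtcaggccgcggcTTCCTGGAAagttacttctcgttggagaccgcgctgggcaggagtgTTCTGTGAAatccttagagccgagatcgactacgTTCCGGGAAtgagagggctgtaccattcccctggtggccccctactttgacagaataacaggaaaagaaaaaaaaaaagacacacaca
Bcor: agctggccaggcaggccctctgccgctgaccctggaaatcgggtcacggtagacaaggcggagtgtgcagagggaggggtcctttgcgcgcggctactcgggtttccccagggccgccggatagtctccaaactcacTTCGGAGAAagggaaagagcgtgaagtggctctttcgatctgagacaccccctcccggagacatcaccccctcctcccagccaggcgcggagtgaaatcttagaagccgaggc

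The outer Bcl6 window held 1 match, TTCTCAGAA, whose first base lay 118 bases before the start. The inner window held 3, TTCCTGGAA, TTCTGTGAA and TTCCGGGAA, at 168, 122 and 88 bases before its start. The Bcor window held 1 match, TTCGGAGAA, 113 bases before the start. The windows of Tbl1xr1, Sin3a and Ctbp1 held no such match. Over the 32851 mouse promoter windows of this length it occurred in 7.02%. Windows of Hdac3 and Mta3 are not reported here. The Bcl6 consensus TTCCTAGAA, itself a case of the same spacing, was searched on both strands. It was in none of the 8 windows of 5 genes (Bcl6, Bcor, Tbl1xr1, Sin3a and Ctbp1), and it occurred in 0.347% of all windows. With an open base (TTCNTAGAA) it was in none of the 8 either, against 0.947% of all windows. Bases after the starts were not searched. At such shares 8 windows would rarely hold the consensus, so its absence says little. These are matches of letters, and no binding was measured.

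The values are log2 signals, so a difference of 1 is a doubling. The label of the cells was checked first. The 9 measured T cell markers averaged between 12.19 and 12.30 on the Bcl6 cKO arrays and between 12.27 and 12.34 on the WT arrays. Markers of B cells, a cell type with high Bcl6 in germinal centres, averaged 6.24 to 6.36 in Bcl6 cKO and 6.24 to 6.31 in WT (7 genes). Of these 7, 2 lay at or under 5.83, the highest value that the Y-linked genes Uty, Kdm5d and Eif2s3y had on arrays where they were low. Ms4a1 (CD20) was lowest at 5.06 and Cd79b highest at 7.47. Myeloid markers averaged 6.34 to 6.57 in Bcl6 cKO and 6.38 to 6.49 in WT, with Cd68 highest at 8.22. In this average Adgre1 was entered under 2 names and so weighs more than the others. NK cell markers averaged 5.59 to 5.82 in Bcl6 cKO and 5.53 to 5.88 in WT, with 3 of 4 at or under 5.83 and Eomes at 8.19. The averages of 8 genes of T cell activation were 11.85 to 12.08 in Bcl6 cKO and 11.70 to 11.95 in WT. The CD8 chain genes Cd8a and Cd8b1 averaged 8.66 to 8.915 in Bcl6 cKO and 8.915 to 9.13 in WT, with Cd8b1 at a mean of 10.80 over all arrays and Cd8a at 6.98. No marker of these lists passed the threshold between the genotypes, and whether other cells had a part in the results below was not tested.

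The arrays also fell into a high and a low class of the Y-linked genes, which were high on 1 of 4 Bcl6 cKO arrays (replicate 1) and 3 of 4 WT arrays (replicates 1 to 3). The remaining WT array, replicate 4, had the lowest estimated array weight (0.367, next 0.759), a weight being smaller where an array departs more from the rest. Both facts bear on the genes described and are given beside them.

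Among these genes, Bcl6 differed most between the genotypes, and its mean signal was higher on the arrays labelled as deleted, a difference that did not pass the test. It read 9.05, 8.67, 8.83 and 8.40 on Bcl6 cKO arrays 1 to 4, against 8.47, 8.33, 8.56 and 8.10 on WT arrays 1 to 4. Of the Bcl6 cKO arrays, 3 lay above the highest WT array, and replicate 4 lay within the WT range. The means were 8.74 ± 0.27 in Bcl6 cKO and 8.37 ± 0.20 in WT (SD, n = 4 each), a log2 difference of 0.37 (95% confidence interval 0.08 to 0.67) or 1.29-fold. In limma over all genes the adjusted p was 0.337 (unadjusted 0.0188), and a two-sided exact permutation test gave p = 0.0857, where 0.0286 is the smallest possible. With array weights the log2 difference of Bcl6 was 0.29 (0.01 to 0.57). Without 1 array it ran from 0.27 to 0.485, with an unadjusted limma p under 0.05 in 6 of 8 fits. The interval included 0 without WT replicate 4 (-0.02 to 0.59) and without Bcl6 cKO replicate 1 (-0.01 to 0.55). Bcl6 is read by 1 cluster, whose position relative to the deleted exons is not known here, so its level checks nothing about the deletion.

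**Figure D1:**
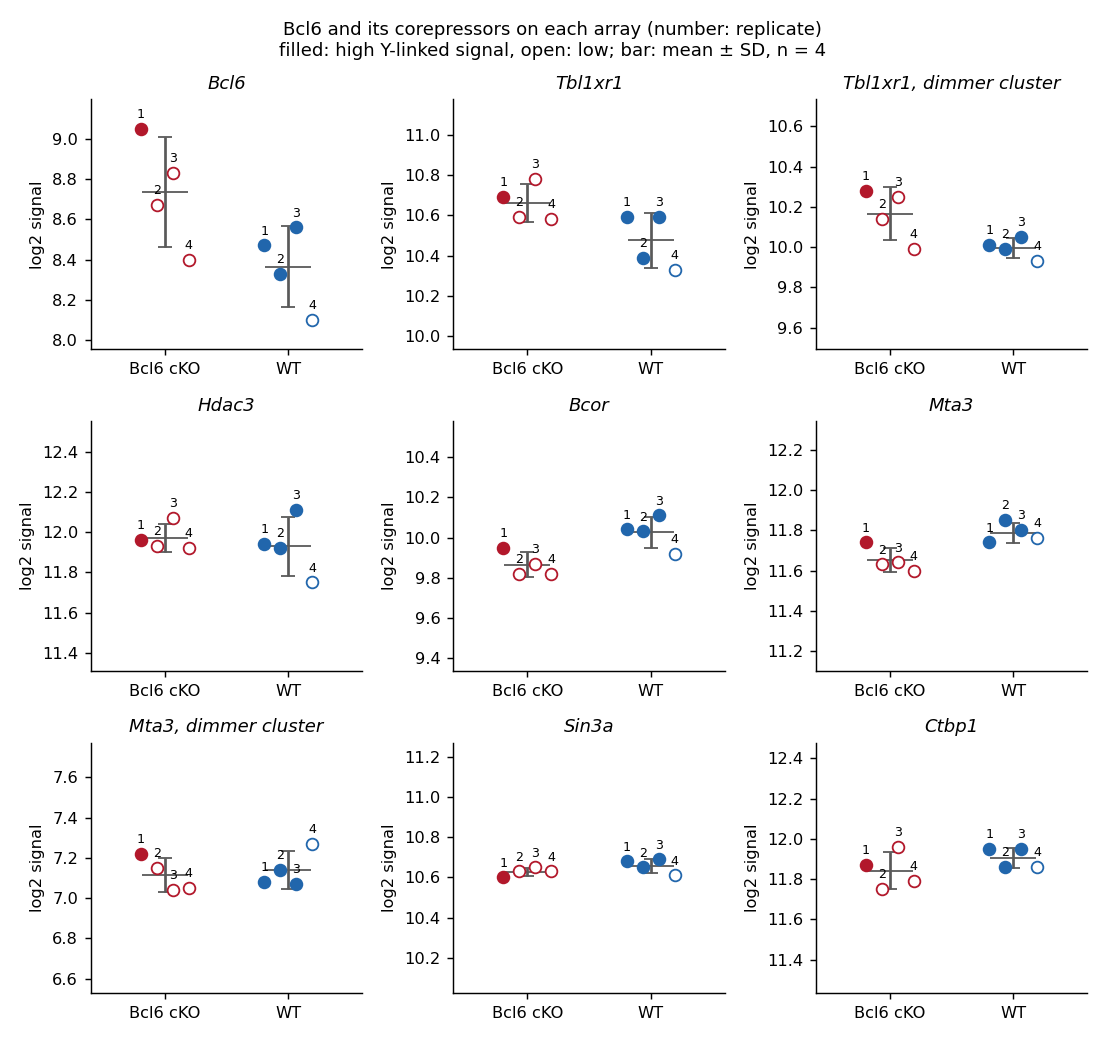
Log2 signal (vertical axes, each spanning the same range of log2 units but not starting at 0) of 9 transcript clusters on the Bcl6 cKO arrays (left) and WT arrays (right). Points are arrays with their replicate number, filled where Y-linked genes were high, and bars give mean ± SD (n = 4). Bcl6 and Tbl1xr1 lean upward in Bcl6 cKO and Bcor and the brighter Mta3 cluster downward, and no cluster has groups that do not overlap.

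The spread of Bcl6 within each genotype moved with the class of the Y-linked genes. In the high class it was 9.05 on the single Bcl6 cKO array and 8.33 to 8.56 on 3 WT arrays, and in the low class 8.40 to 8.83 on 3 Bcl6 cKO arrays and 8.10 on the single WT array. The genotypes therefore did not overlap within either class. With the class as a term in limma the log2 difference of Bcl6 was 0.57 (0.33 to 0.80), 1.5 times that without it, with an unadjusted p of 0.000345 and an adjusted p of 0.146. In that fit 0.0502% of all genes passed, and none of the 7 did. Each class sets a single array of a genotype against 3, so that array is taken to vary like the others. Groups that did not overlap the same way within both classes were found for 3 of the 7 genes (Bcl6, Tbl1xr1 and Bcor), and for 15.4% of all genes.

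Bcl6 also moved with odd and even replicate numbers, whose meaning the labels do not give. Replicates 1 and 3 averaged 8.94 and replicates 2 and 4 averaged 8.54 in Bcl6 cKO, against 8.52 and 8.22 in WT. The difference of odd from even numbers, with genotype in the fit, was 0.35 in limma (adjusted p = 0.118). Across all genes 0.667% passed for this difference, and none of the 7 genes did. Tbl1xr1 came next among them (0.19, adjusted p = 0.177).

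None of the 7 genes passed an adjusted p of 0.05 between the genotypes, a threshold that 0.221% of all genes passed (44 genes). At an unadjusted p under 0.05 stood 4 of the 7, Bcl6, Tbl1xr1, Bcor and Mta3, against 10.8% of all genes. None had groups that did not overlap, against 5.97% of all genes. The 7 genes had 3 positive and 4 negative log2 differences with a median of -0.03, and the median over all genes was 0.0025. Fewer cells that express a gene and less of its RNA per cell cannot be told apart in these bulk samples.

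The NCoR complex is represented by Tbl1xr1 and Hdac3. Tbl1xr1, a WD40-repeat subunit that helps exchange corepressors for coactivators, read 10.69, 10.59, 10.78 and 10.58 on Bcl6 cKO arrays 1 to 4, against 10.59, 10.39, 10.59 and 10.33 on WT arrays 1 to 4. Bcl6 cKO replicates 1 and 3 lay above all WT arrays, and the groups overlapped. Tbl1xr1 had a log2 difference of 0.19 (0.02 to 0.35, limma adjusted p = 0.398, two-sided exact permutation p = 0.171). With array weights it was 0.14 (-0.01 to 0.30), and with the class of Y-linked genes as a term 0.24 (0.06 to 0.43). Without 1 array it ran from 0.14 to 0.22, the lowest without WT replicate 4 (interval -0.03 to 0.30). A dimmer cluster of Tbl1xr1 gave a difference of the same sign, 0.17 (0.02 to 0.32, limma over all clusters, adjusted p = 0.385), a fit in which 0.193% of clusters passed. It read 10.28, 10.14, 10.25 and 9.99 on Bcl6 cKO arrays 1 to 4 and 10.01, 9.99, 10.05 and 9.93 on WT arrays 1 to 4, so 3 of 4 Bcl6 cKO arrays lay above all WT arrays. The clusters share RNA and arrays and are no independent evidence.

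Hdac3, the deacetylase that NCoR activates, read 11.96, 11.93, 12.07 and 11.92 on Bcl6 cKO arrays 1 to 4 and 11.94, 11.92, 12.11 and 11.75 on WT arrays 1 to 4. All 4 Bcl6 cKO arrays lay within the WT range. Hdac3 differed by 0.04 (-0.12 to 0.20, limma adjusted p = 0.913), and it turned to -0.02 without WT replicate 4, the lowest array of this gene. It was -0.0053 with array weights. In the high class of Y-linked genes it was -0.03 and in the low class 0.22.

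Bcor, the X-linked gene of a corepressor that joins Bcl6 to a polycomb complex, was the corepressor gene with the smallest unadjusted p (0.017). It read 9.95, 9.82, 9.87 and 9.82 on Bcl6 cKO arrays 1 to 4, against 10.04, 10.03, 10.11 and 9.92 on WT arrays 1 to 4. Of the Bcl6 cKO arrays, 3 lay below the lowest WT array, and replicate 1 lay within the WT range. The log2 difference was -0.16 (-0.29 to -0.03, limma adjusted p = 0.327, two-sided exact permutation p = 0.0571), so WT stood 1.12-fold above Bcl6 cKO.

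Like Bcl6, Bcor moved with the class of the Y-linked genes within each genotype. In the high class it was 9.95 on the single Bcl6 cKO array and 10.03 to 10.11 in WT, and in the low class 9.82 to 9.87 in Bcl6 cKO and 9.92 on the single WT array. With the class as a term the log2 difference of Bcor was -0.10 (-0.22 to 0.02, limma adjusted p = 0.582), against -0.16 without it. The difference between the classes, high minus low, was 0.13 for Bcor (limma adjusted p = 0.594) and 0.39 for Bcl6 (adjusted p = 0.589).

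Mta3, a NuRD subunit linked to Bcl6 in human B cells, read 11.74, 11.63, 11.64 and 11.60 on Bcl6 cKO arrays 1 to 4 in its brighter cluster, against 11.74, 11.85, 11.80 and 11.76 on WT arrays 1 to 4. The groups met at 11.74, the value of replicate 1 in both. The log2 difference was -0.135 (-0.25 to -0.02, limma adjusted p = 0.369, two-sided exact permutation p = 0.0571). The dimmer Mta3 cluster did not follow it. It read 7.22, 7.15, 7.04 and 7.05 in Bcl6 cKO and 7.08, 7.14, 7.07 and 7.27 in WT, with a difference of -0.03 (-0.17 to 0.12, limma over all clusters, adjusted p = 0.946). With the mean of both clusters the difference of Mta3 was -0.08 (-0.20 to 0.04), and with the class of Y-linked genes as a term -0.10 (-0.22 to 0.03).

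Sin3a, the scaffold of the SIN3 deacetylase complex, varied least within the genotypes among these genes. It read 10.60, 10.63, 10.65 and 10.63 on Bcl6 cKO arrays 1 to 4 and 10.68, 10.65, 10.69 and 10.61 on WT arrays 1 to 4, with SDs of 0.02 and 0.04. The groups overlapped. The log2 difference was -0.03 (-0.13 to 0.07, limma adjusted p = 0.885), and in the low class of Y-linked genes it was 0.03.

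Ctbp1, an NAD-binding corepressor, read 11.87, 11.75, 11.96 and 11.79 on Bcl6 cKO arrays 1 to 4 and 11.95, 11.86, 11.95 and 11.86 on WT arrays 1 to 4. Its Bcl6 cKO arrays reached both above and below the WT range. The log2 difference was -0.06 (-0.19 to 0.07, limma adjusted p = 0.781). Without Bcl6 cKO replicate 2 the difference of Ctbp1 was -0.03 and without replicate 3 it was -0.10. For Hdac3, Sin3a and Ctbp1 the intervals of the comparison of all 8 arrays reached at most 0.20 from 0, and within a single class of Y-linked genes those of Hdac3 reached 0.47 and those of Ctbp1 -0.30.

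**Figure D2:**
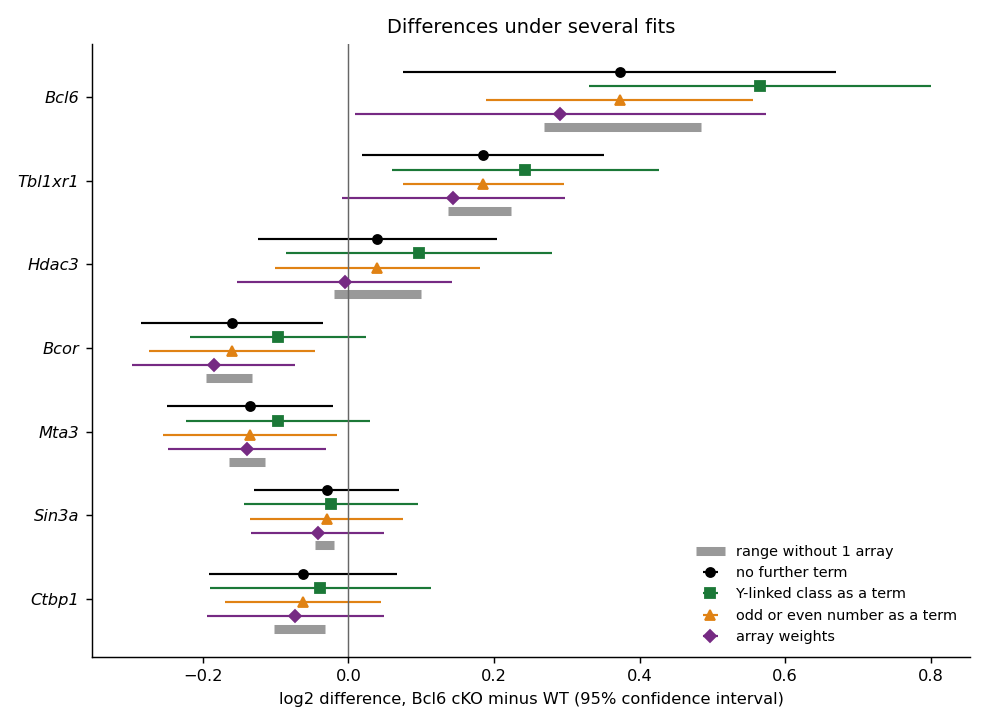
Log2 difference, Bcl6 cKO minus WT (horizontal axis), for 7 genes (rows). Points with 95% confidence intervals come from limma with no further term, with the class of Y-linked genes, with odd or even replicate number, and with array weights, and grey bars span the 8 differences without 1 array. Bcl6 lies between 0.27 and 0.49 in the grey bar and the sign of Hdac3 is not kept.

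Genes listed under corepressor complexes, not all of them subunits, and the other histone deacetylase genes were taken from 6 lists. These hold 61 measured genes besides those above. None of the 61 passed the threshold in limma over all genes, 7 had an unadjusted p under 0.05 (11.5%, against 10.8% of all genes), and 5 had groups that did not overlap, against 5.97% of all genes. Of the 61, 26 were above WT, 34 below and 1 equal, with a median log2 difference of -0.01. In the NCoR list (6 of 7 entries measured) 4 genes were above and 2 below WT, with a median of 0.03. Cops2, a COP9 signalosome subunit also known as a corepressor of nuclear receptors, lay between 12.05 and 12.17 in Bcl6 cKO and between 11.95 and 12.03 in WT, a log2 difference of 0.13 (limma adjusted p = 0.348). Of the 30 genes named from these lists and those below, 21 had a difference that moved by over 1.5 times within at least 1 class of Y-linked genes, 9 with the class as a term and 13 without 1 array. The NCoR subunit genes Gps2 and Tbl1x had log2 differences of -0.035 and -0.03.

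In the list of the BCOR polycomb complex (10 genes) 5 were above and 5 below WT, with a median of -0.01. Rybp, a subunit of polycomb complexes, had a log2 difference of 0.14 and Kdm2b, which brings BCOR to CpG islands, of -0.12. Pcgf1, the subunit that binds BCOR directly, read 8.66 ± 0.18 in Bcl6 cKO and 8.86 ± 0.19 in WT (SD, n = 4 each, limma adjusted p = 0.548). The intervals of all 3 in their brighter clusters included 0. A dimmer Rybp cluster gave 0.245, and the mean of both gave 0.19 (0.04 to 0.35, limma adjusted p = 0.343). Without Bcl6 cKO replicate 2 the differences were 0.07 for Rybp and -0.06 for Kdm2b, and without replicate 3 that of Pcgf1 was -0.13.

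The NuRD list (14 genes) was split into 7 above and 7 below WT, with a median of 0.0012. Its deacetylase gene Hdac1 had the smallest p of the 61 genes. It read 12.45, 12.41, 12.43 and 12.38 on Bcl6 cKO arrays 1 to 4 and 12.20, 12.21, 12.01 and 12.16 on WT arrays 1 to 4, so the groups were apart. The log2 difference of Hdac1 was 0.27 (0.15 to 0.40, limma adjusted p = 0.0911), and it passed when the spread was fitted as a trend on signal (adjusted p = 0.0428, and 0.0295 with the robust option). Hdac1 passed under no other setting. In limma its adjusted p was 0.254 with the class of Y-linked genes as a term and 0.123 to 0.255 without 1 array. A dimmer Hdac1 cluster gave 0.31. Its partner Hdac2 was at 11.42 ± 0.02 in Bcl6 cKO and 11.32 ± 0.04 in WT (SD, n = 4 each, limma adjusted p = 0.436), also without overlap. The remodelling ATPase gene Chd3 had a log2 difference of -0.13.

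In the SIN3 list (15 genes) 3 were above and 11 below WT and the chromatin reader gene Ing2 had equal means, with a median of -0.03. The 3 included Sap30, a small subunit of the complex, at 9.18, 9.65, 9.20 and 9.26 on Bcl6 cKO arrays 1 to 4 and 8.87, 9.05, 8.96 and 8.84 on WT arrays 1 to 4. Its groups were apart, with replicate 2 the highest in both, and the log2 difference of 0.39 (0.17 to 0.61) did not pass (limma adjusted p = 0.167). It was 0.22 in the high class of Y-linked genes and 0.53 in the low class. Sinhcaf, a SIN3-HDAC subunit, had a log2 difference of 0.13 and Ing1, a relative of Ing2, of -0.13. In the CtBP and CoREST list (14 of 15 entries measured) 6 were above and 8 below WT, with a median of -0.01 and none without overlap. Zfp217, a zinc finger protein that recruits CtBP, had a log2 difference of -0.14, the histone methyltransferase gene Ehmt2 of 0.12 and the demethylase gene Kdm1a of 0.07. The other 8 histone deacetylase genes ranged from -0.085 (Hdac5) to 0.08 (Hdac11), with Hdac9 at -0.055, a median of -0.0062 and no gene at an unadjusted p under 0.05.

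**Figure D3:**
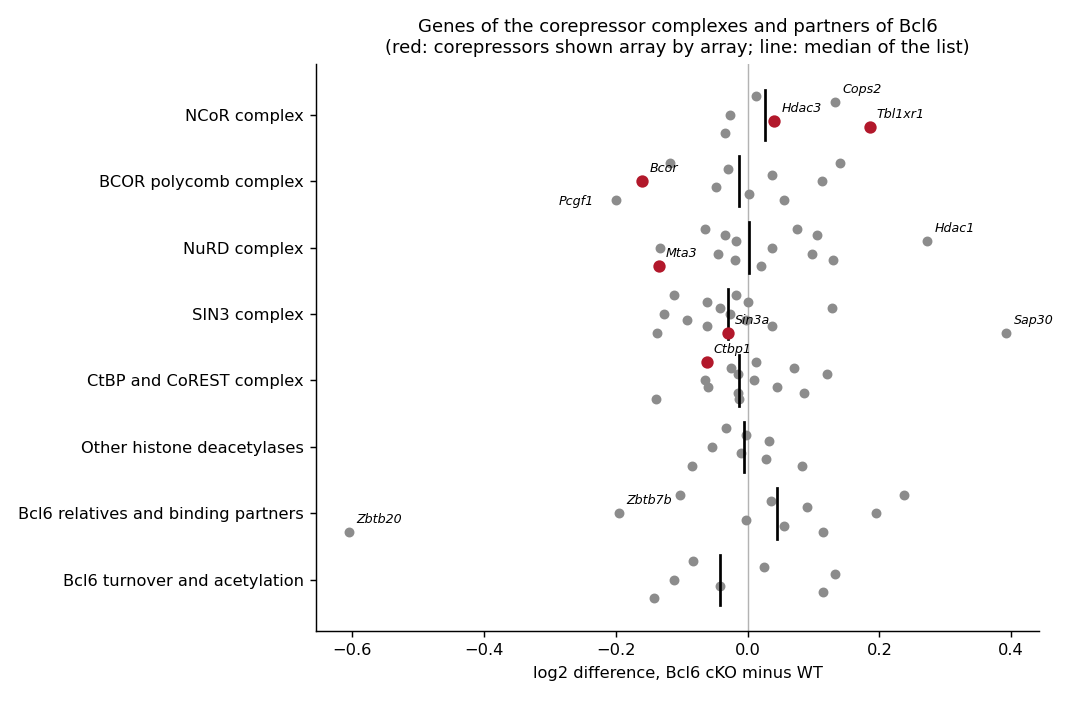
Log2 difference, Bcl6 cKO minus WT (horizontal axis), of each measured gene of 8 lists (rows). Red points are the corepressor genes given array by array, black lines the list medians. The medians lie between -0.04 and 0.05, and Hdac1, Sap30 and Zbtb20 lie farthest out, none past the threshold.

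Relatives and binding partners of Bcl6 came next. Zbtb20, a BTB zinc finger repressor of the same family and a gene of chromosome 16 like Bcl6, read 8.60, 8.44, 7.98 and 8.02 on Bcl6 cKO arrays 1 to 4 and 8.72, 8.94, 8.73 and 9.07 on WT arrays 1 to 4. The groups were apart. The log2 difference was -0.605 (-0.91 to -0.30, limma adjusted p = 0.13), and a dimmer Zbtb20 cluster gave -0.67. Without 1 array Zbtb20 passed in 1 of 8 fits, that without Bcl6 cKO replicate 1 (limma adjusted p = 0.0425, others up to 0.393). The difference of Zbtb20 was -0.20 in the high class of Y-linked genes and -0.92 in the low class. Zbtb7b, which encodes the CD4 lineage factor ThPOK, had a log2 difference of -0.195 and groups apart (limma adjusted p = 0.196). The activation factor Irf4 had a difference of 0.195 with groups that overlapped, and of 0.07 with the class of Y-linked genes as a term. The difference of Irf4 was 0.12 without Bcl6 cKO replicate 2, 0.13 without WT replicate 1 and 0.26 without Bcl6 cKO replicate 1. With odd or even number as a term it was 0.195 (0.07 to 0.32, limma adjusted p = 0.186). Of the 10 genes in this list of relatives and partners, 6 were above and 4 below WT, with a median of 0.045, and none passed.

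Bcl6 protein is acetylated by the product of Ep300, is bound by Hsp90 in human lymphoma cells, and is degraded through a ligase built on Cul1. Of the 7 measured genes of this kind 3 were above and 4 below WT, with a median of -0.04, and none passed in limma. Ep300 was 11.42 ± 0.10 in Bcl6 cKO and 11.57 ± 0.03 in WT, and Cul1 11.16 ± 0.08 and 11.02 ± 0.04 (SD, n = 4 each, limma adjusted p = 0.397 and 0.398). Hsp90aa1 had a log2 difference of 0.115.

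Among 13 measured genes that act upstream of Bcl6, 5 were above and 8 below WT, with a median of -0.07, and none passed. Lef1, a transcription factor that promotes Bcl6 expression, read 12.23, 12.25, 12.08 and 12.20 on Bcl6 cKO arrays 1 to 4 and 12.32, 12.50, 12.38 and 12.48 on WT arrays 1 to 4. Its groups were apart with a log2 difference of -0.23 (limma adjusted p = 0.177). Il6ra, the receptor chain for interleukin-6, which induces Bcl6, had a log2 difference of -0.30 (limma adjusted p = 0.267), which was -0.07 in the high class of Y-linked genes and -0.49 in the low class. Tbx21, the Th1 factor T-bet, read 8.33, 10.65, 8.97 and 9.94 on Bcl6 cKO arrays 1 to 4 and 8.22, 9.13, 7.73 and 8.51 on WT arrays 1 to 4, and within both genotypes the even numbers were high. Its difference of 1.075 had an interval from 0.09 to 2.06 (limma adjusted p = 0.409). Without Bcl6 cKO replicate 2 the difference of Tbx21 was 0.68, and without Bcl6 cKO replicate 1 it was 1.46. With the class of Y-linked genes as a term it was 0.66. It was -0.03 in the high class and 1.34 in the low class. With odd or even number as a term the difference of Tbx21 was 1.075 (0.551 to 1.599, limma adjusted p = 0.0906). With the class and odd or even number as terms it was 1.07 (0.39 to 1.75, limma adjusted p = 0.368).

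Genes known to be repressed by Bcl6 did not stand on 1 side of WT. Of 19 measured, which again include Tbx21, 9 were above and 10 below. The log2 differences ran from -0.775 to 1.64 with a median of -0.0075. In limma over all genes 1 passed, where 0.221% of all genes passed. At an unadjusted p under 0.05 stood 7 of the 19, against 10.8% of all genes, and 3 had groups that did not overlap, against 5.97%. The gene that passed was Ccl3, a chemokine gene, which read 11.39, 11.92, 12.20 and 11.76 on Bcl6 cKO arrays 1 to 4 and 10.22, 10.71, 9.71 and 10.08 on WT arrays 1 to 4. Every Bcl6 cKO array lay above all WT arrays, and the log2 difference was 1.64 (1.18 to 2.09, limma adjusted p = 0.0154). Ccl3 did not pass with the class of Y-linked genes as a term (1.53, adjusted p = 0.0941), with the class and odd or even number (1.59, adjusted p = 0.0836), with trend and robust moderation of the spread (adjusted p = 0.0657), within the high class (1.18) or the low class (1.88), or without Bcl6 cKO replicate 3 or 4 or WT replicate 1 or 4 (1.51 to 1.66, adjusted p = 0.0507 to 0.0789). The selectin ligand gene Selplg (PSGL-1) read 12.11, 12.05, 11.84 and 11.97 on Bcl6 cKO arrays 1 to 4 and 12.36, 12.30, 12.27 and 12.34 on WT arrays 1 to 4. It thus lay below WT on every Bcl6 cKO array (log2 difference -0.325, limma adjusted p = 0.0747). Without 1 array Selplg passed in 1 of 8 fits, that without Bcl6 cKO replicate 1 (limma adjusted p = 0.0426, others up to 0.252). It also passed with a trend of the spread on signal (adjusted p = 0.0428, and 0.0282 with the robust option). With the class of Y-linked genes as a term it did not (-0.29, adjusted p = 0.27). The difference of Selplg was -0.20 in the high class and -0.39 in the low class. The adhesion receptor gene Cd44 was 8.76 ± 0.43 in Bcl6 cKO and 7.94 ± 0.36 in WT (SD, n = 4 each, limma adjusted p = 0.178). The log2 difference of Cd44 was 0.28 in the high class of Y-linked genes and 1.29 in the low class, against 0.815 over all arrays.

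The genes whose signal followed Bcl6 most closely over the 8 arrays were found among 9443 named genes with a mean signal at or above the median. Likeness was measured by Pearson's r with Bcl6 over the 8 arrays, which share genotype, Y-linked class and replicate numbering, and it is a description of these arrays. Ugp2, a UDP-glucose enzyme gene, came first (r = 0.98), followed by the retromer subunit gene Vps26a (0.97), Thumpd1 (0.96), Phf23 (0.96) and Fgf13 (0.96). Their log2 differences between Bcl6 cKO and WT ran from 0.065 for Vps26a to 0.19 for Thumpd1, smaller than that of Bcl6. Of the corepressor genes Tbl1xr1 ranked highest, at 68, followed by Hdac3 at 1190, Ctbp1 at 4881, Bcor at 6477, Sin3a at 6481 and Mta3 at 7344. These ranks include the difference between the genotypes. For deviations from the mean of each genotype, Bcor had the highest r with Bcl6 of these genes (0.90, against -0.13 for its values). Tbl1xr1 had 0.76, Hdac3 0.66, Ctbp1 0.65, Mta3 0.61 and Sin3a 0.33. Between pairs of corepressor genes this r ran from -0.28 (Mta3 with Sin3a) to 0.88 (Tbl1xr1 with Ctbp1). The r of deviations was not ranked among all genes.

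**Figure D4:**
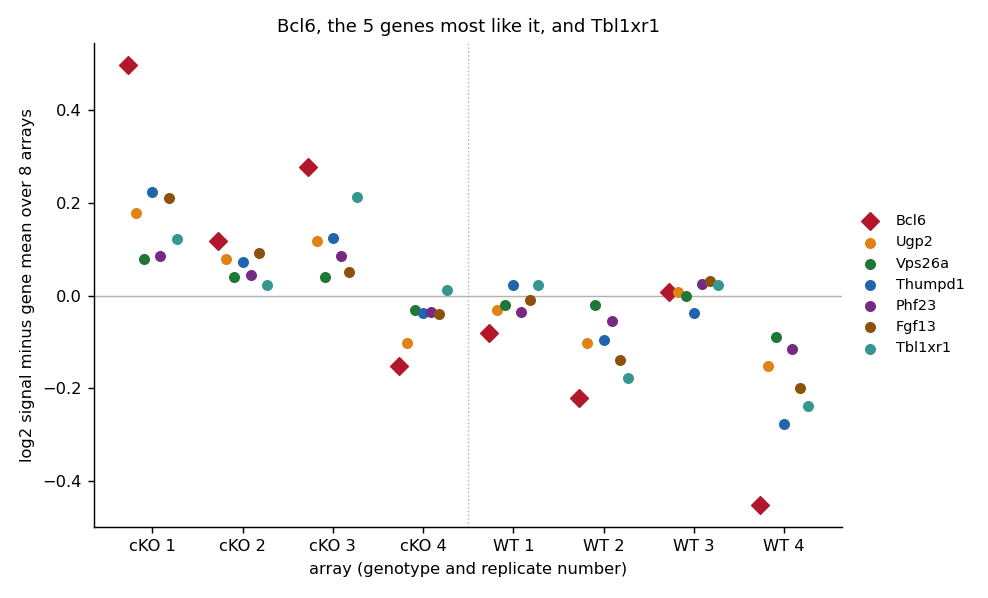
Log2 signal of Bcl6 (diamonds), the 5 genes most like it and Tbl1xr1 (circles), each minus its mean over the 8 arrays (vertical axis), on the Bcl6 cKO arrays (left) and WT arrays (right) by replicate number. In each genotype replicate 4 is the lowest for Bcl6 and the 5 genes, and the range of Bcl6 is wider than that of the other 6.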

How the data were processed

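The authors deposited log2 signals, 1 per transcript cluster and array, made with RMA and Partek per the submitters' processing notes, with versions and settings not given in the sources used here. RMA brings all arrays to a common distribution. Array medians lay between 7.57 and 7.64, and arrays have no read depth, so their number limits the precision (median standard error of a log2 difference 0.0653). Of 35556 clusters, 21789 have 1 gene symbol in the platform annotation, and 21698 of these took their symbol and chromosome from RefSeq (GRCm38.p6) by Entrez ID. The brightest cluster stood for a gene.

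The genotypes were compared with limma 3.58.1 (R 4.3.3, lmFit and eBayes, no covariate) over all 19938 genes with Benjamini-Hochberg adjustment, and single genes also by an exact permutation test of 4 against 4 arrays (SciPy 1.17.1). Differences are Bcl6 cKO minus WT. No filter on dim genes was used. The fits were tested on simulated data. Whether they would find a difference as small as that of Bcl6 or the corepressor genes was not tested.

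The genes, the 10 lists (116 of 127 entries measured) and the tests were chosen with earlier results of these data known. From each list the genes past the threshold are named, made up to 3 with those of the smallest p, and no list was tested as a set. The arrays were divided by signal of Uty, Kdm5d and Eif2s3y (Y-linked). Alternatives were the moderation of the spread, array weights, scaling, filters on mean signal, averaging the clusters of a gene, a replicate block, added terms, and leaving out arrays. The alternatives for named list genes and the overlap within classes were added after seeing the data.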

Additional observations from a re-analysis of the deposited data

Results flagged for a closer look

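In 2 of the 84 groups of 4 arrays examined (42 genes in 2 genotypes) 1 array stood far from the other 3, where chance gives about 1 in 20. Sap30 read 9.65 on Bcl6 cKO replicate 2, against 9.18 to 9.26 on the other Bcl6 cKO arrays. Hsp90aa1 read 13.01 on Bcl6 cKO replicate 1, against 13.10 to 13.11 on the others.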

How the results depend on the processing

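Under 22 other settings none of the 7 genes passed in limma. Bcl6 and Tbl1xr1 stayed above WT and Bcor, Mta3 and Ctbp1 below it in all 22, with log2 differences of 0.27 to 0.60 for Bcl6 (adjusted p = 0.0844 to 0.857), 0.14 to 0.32 for Tbl1xr1, -0.195 to -0.08 for Bcor, -0.16 to -0.06 for Mta3 and -0.10 to -0.03 for Ctbp1. Hdac3 turned to -0.0053 with array weights, to -0.03 within the high class of Y-linked genes and ran from -0.02 to 0.10 without 1 array, and Sin3a turned to 0.0267 within the low class. Of the list genes, Gps2 turned to 0.0767 within the low class, Tbl1x to 0.0083 with the class as a term, 0.0133 within the high and 0.0033 within the low class, and -0.0667 to 0.0067 without 1 array. Hdac11 turned to -0.055 with the class and odd or even number as terms and to -0.15 within the low class, and Tbx21 to -0.03 within the high class. The causes were not tested.

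The genes past the threshold, 21 higher and 23 lower, moved most. Without 1 array they were 5 to 39 higher and 5 to 100 lower. Higher and lower genes were 39 and 100 without Bcl6 cKO replicate 1, 12 and 10 without replicate 2, 5 and 6 without 3, and 6 and 5 without 4, then 6 and 5 without WT replicate 1, 9 and 9 without 2, 8 and 10 without 3, and 7 and 5 without 4. With the class as a term there were 5 higher and 5 lower, with class and odd or even number 5 and 5, with odd or even number 33 and 60, and within the high or low class 0 and 0 in limma (1074 and 2955 genes at an unadjusted p under 0.05). A lone array of a genotype is there assumed to vary like the others. Lower genes were 47 with a trend, 61 with trend and robust, 51 with array weights, 13 after centring, 14 after quantile normalization, and 42 and 52 with filters at the 30th percentile and the median.

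Deviations of same-numbered arrays of the genotypes had correlations across genes of 0.0731, 0.206, 0.203 and 0.205 for numbers 1 to 4. Correlations between different numbers ran from -0.236 to 0.186, below those of numbers 2 to 4 but not all below that of number 1. The labels do not give the numbers as pairs, so the genotypes were compared without pairing. Whether the numbers mark pairs was not tested. With the replicate block Bcl6 differed by 0.37 (adjusted p = 0.0844), none of the 7 genes passed, and 15 genes were higher and 20 lower.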
